A study of Mus musculus with 12 samples.

Results

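Expression of 6 genes for acute-phase and secreted innate defense proteins, *Saa3*, *Lcn2*, *Hp*, *Ptx3*, *Slpi* and *Steap4*, was examined in mouse bone marrow macrophages (BMMs) and mesenchymal stem cells (MSCs). The genes were chosen by name, by matching the Ensembl identifiers of the count tables to these symbols, and all 6 of the 6 were found among 55487 genes. All 6 passed the filter on low counts in both experiments. BMMs are macrophages grown from bone marrow with the growth factor M-CSF. They came from female C57BL/6 mice, labeled as 8 weeks old, after ovariectomy (OVX, removal of the ovaries and so of most estrogen) or a sham operation, with 3 libraries a group. MSCs were adherent bone marrow cells of the same strain and labeled age that were expanded in culture and were not sorted. They were cultured alone (MSC), with RAW264.7 cells (MSC+RAW-TW) or with RAW264.7 cells that had been stimulated with lipopolysaccharide (MSC+RAW-LPS-TW), with 2 libraries a group. RAW264.7 is a mouse macrophage cell line, lipopolysaccharide (LPS) is a component of bacterial cell walls, and TW stands for the transwell membrane between the cell types. No genetic change was stated for any group, and the interval from operation to harvest and the LPS dose were not given for these libraries. Nothing stated that the libraries of a group came from separate mice, so the p-values measure the spread between libraries, which may be technical.

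The acute-phase response is the change in secreted proteins that follows infection or injury. Interleukin-1, interleukin-6 and tumor necrosis factor induce it through NF-κB, STAT3 and C/EBP transcription factors, in liver and also in macrophages, stromal cells and fat. SAA3 is a lipid-binding serum amyloid A protein made largely outside the liver. LCN2 (lipocalin 2) withholds iron from bacteria by binding their siderophores, and haptoglobin (the product of *Hp*) captures free hemoglobin. PTX3 is a long pentraxin that binds microbes and complement and also takes part in matrix assembly. SLPI inhibits the neutrophil serine proteases, and STEAP4 is a membrane metalloreductase for iron and copper.

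On GRCm38 the genes lie on separate chromosomes, apart from *Lcn2* and *Slpi*, which are far apart on the same one. *Saa3* (ENSMUSG00000040026) spans chr7:46711998-46715700 on the minus strand, and its principal transcript has 4 exons. *Lcn2* (ENSMUSG00000026822) spans chr2:32384633-32388252 on the minus strand with 6 exons. *Hp* (ENSMUSG00000031722) spans chr8:109575128-109579172 on the minus strand with 5 exons. *Ptx3* (ENSMUSG00000027832) spans chr3:66219910-66225805 on the plus strand with 3 exons. *Slpi* (ENSMUSG00000017002) spans chr2:164354070-164389095 on the minus strand with 4 exons. *Steap4* (ENSMUSG00000012428) spans chr5:7960457-7982213 on the plus strand with 5 exons. The counts covered all exons of a gene and do not tell its transcripts apart. No exon of another gene overlapped them apart from 1 base shared by *Slpi* and *Mir7678*. Of 525 stretches of 31 bases in the principal *Saa3* transcript, 30 also occurred in *Saa1* or *Saa2*. Of 1315 in *Hp*, 6 occurred in other genes. The other 4 genes shared none.

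Promoter sequence from RefSeq (GRCm38.p6) was at hand for 5 of the 6 genes, *Hp* being the exception. Each window runs from 250 bases before the start site to 50 bases after it. Both strands were searched for a C/EBP motif (TTGCNNAA), a STAT motif (TTCNNNGAA), the NF-κB motif and a TATA box (TATAAA). Windows are shown for the gene with the largest fall after OVX (*Saa3*), the gene with the largest rise with LPS (*Lcn2*) and the gene that moved against the others after OVX (*Ptx3*). They are printed 5′ to 3′ on the strand of the gene, and capitals mark the motif matches.
Saa3, chr7:46715627-46715926, minus strand: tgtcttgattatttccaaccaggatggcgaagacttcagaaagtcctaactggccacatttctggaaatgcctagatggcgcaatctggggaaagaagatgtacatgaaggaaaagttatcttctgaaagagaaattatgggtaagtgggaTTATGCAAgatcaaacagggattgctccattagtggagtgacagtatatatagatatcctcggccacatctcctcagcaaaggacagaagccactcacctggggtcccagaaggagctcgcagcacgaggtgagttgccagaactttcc
Lcn2, chr2:32387690-32387989, minus strand: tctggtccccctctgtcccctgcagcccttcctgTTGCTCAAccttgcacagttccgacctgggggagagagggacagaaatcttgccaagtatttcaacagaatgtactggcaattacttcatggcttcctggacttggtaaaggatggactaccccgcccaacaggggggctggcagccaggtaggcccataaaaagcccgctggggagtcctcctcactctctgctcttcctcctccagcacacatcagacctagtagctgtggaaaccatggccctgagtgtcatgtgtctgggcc
Ptx3, chr3:66219637-66219936, plus strand: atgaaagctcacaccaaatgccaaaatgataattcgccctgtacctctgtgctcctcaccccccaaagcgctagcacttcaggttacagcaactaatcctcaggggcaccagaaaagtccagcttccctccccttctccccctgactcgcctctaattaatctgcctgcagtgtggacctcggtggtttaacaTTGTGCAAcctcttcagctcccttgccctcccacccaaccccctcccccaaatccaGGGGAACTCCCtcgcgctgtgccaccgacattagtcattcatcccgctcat

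A C/EBP match was present in all 5 windows, and the same letters were present in 10.8% of 32851 RefSeq promoters. As printed on the strand of the gene, it is TTATGCAA in *Saa3*, from -99 to -92 relative to the start site, and fits the motif when read on the opposite strand. In *Lcn2* it read TTGCTCAA, from -216 to -209. In *Ptx3* (TTGTGCAA, from -57 to -50) the match is also on the opposite strand. The *Slpi* match (TTGAGCAA as read on the strand of the gene, again a match on the opposite strand) lay from -241 to -234 and the *Steap4* match (TTGCGAAA) from -87 to -80. An NF-κB match, found in 8.46% of promoters, was present in *Ptx3* at the start site itself, where matches on both strands overlapped from -1 to 10, and at 2 places in *Steap4*. *Steap4* also held the only STAT match (TTCCCGGAA, from -116 to -108) and the only TATA box match. The latter was on the opposite strand (TTTATA as read on the strand of the gene), from -215 to -210. These motifs were present in 8.3% and 13.6% of promoters. *Ptx3*, which rose after OVX, and the 4 other genes, which fell, thus shared the C/EBP letters. A match is a run of letters and does not show that a factor binds.

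**Figure D1:**
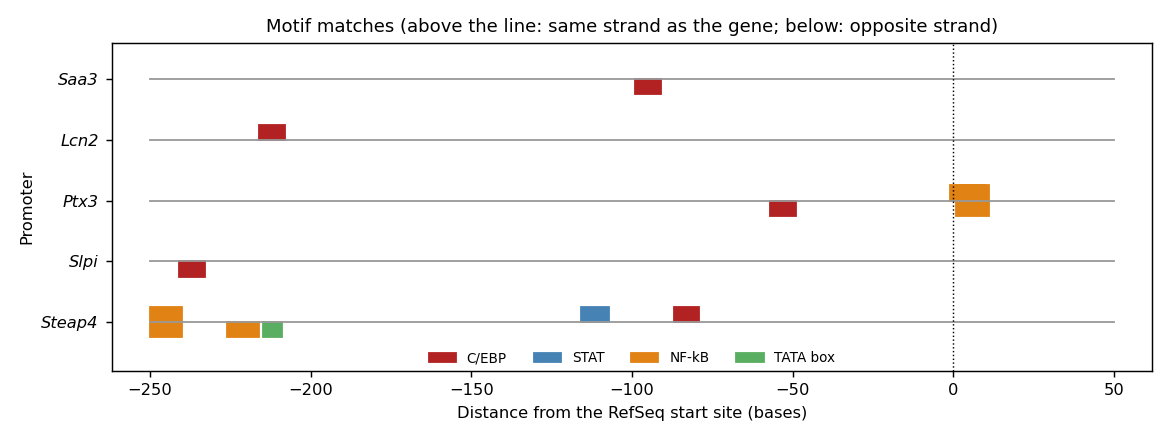
Positions of motif matches in the promoter windows of 5 genes, by distance in bases from the RefSeq start site (dotted line). Boxes above a line are on the strand of the gene and boxes below it on the opposite strand. Each window holds 1 C/EBP match, at places that range from -241 in *Slpi* to -50 in *Ptx3*.

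The libraries held 17012923 to 45367105 counts. Sham libraries 2 and 3 differed by less than the spread seen in every other pair, and so did both MSC+RAW-TW libraries. The ratio of their chi-square in highly counted to that in lowly counted genes was 1.08 and 1.09, against 4.68 to 26.5 in the other pairs. Each pair was counted as 1 sample, which left 3 OVX, 2 sham, 2 MSC, 1 MSC+RAW-TW and 2 MSC+RAW-LPS-TW samples. The columns of MSC+RAW-TW and MSC+RAW-LPS-TW could be tied to their group but not to a replicate number, so libraries 1 and 2 of these groups are named in column order. Levels are CPM, that is counts scaled to a common library size, here with TMM factors within each experiment. Ribosomal RNA took 2.56% to 2.77% of the counts in OVX, 3.22% to 5.70% in sham, 4.14% to 4.83% in MSC, 1.91% to 1.93% in MSC+RAW-TW and 5.67% to 8.03% in MSC+RAW-LPS-TW. Without the ribosomal RNA genes, the *Saa3* level per kilobase of exon moved from 226 to 235 CPM in OVX, from 2517 to 2617 in sham, from 1331 to 1408 in MSC, from 2852 to 2974 in MSC+RAW-TW and from 15390 to 15980 in MSC+RAW-LPS-TW. The fold changes below were not refitted without these genes. Mitochondrial transcripts took 0.527% to 0.811% of the counts in OVX and 0.211% to 0.411% in sham, and 0.323% to 0.477% in MSC, 0.121% to 0.125% in MSC+RAW-TW and 0.397% to 0.402% in MSC+RAW-LPS-TW. Their part in the results was not tested.

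The labels were compared with cell type markers. All 20 macrophage markers exceeded 1 CPM in every library, those of MSCs cultured alone included. Their summed level was 48010 to 51800 CPM in OVX, 62970 to 70300 in sham, 31570 to 31960 in MSC, 41740 to 42390 in MSC+RAW-TW and 17440 to 17830 in MSC+RAW-LPS-TW. Most of each sum was *Lyz2*, at a mean of 38200 CPM in OVX, 49730 in sham, 21790 in MSC, 26330 in MSC+RAW-TW and 9562 in MSC+RAW-LPS-TW. The 12 stromal markers summed to 11520 to 12370 CPM in OVX, 10070 to 11800 in sham, 3843 to 3908 in MSC, 3057 to 3087 in MSC+RAW-TW and 5346 to 5358 in MSC+RAW-LPS-TW. *Ptprc*, for the blood cell protein CD45, was at a mean of 170 CPM in MSC. The study also examined MSCs for CD45 and CD34 by flow cytometry, which was not analysed here. The cultures labeled as MSCs therefore held macrophage RNA beside stromal RNA, and the BMM cultures held stromal RNA. In bulk RNA, the cell that made a transcript is not known, and fewer cells of a type cannot be told apart from less RNA per cell.

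**Figure D2:**
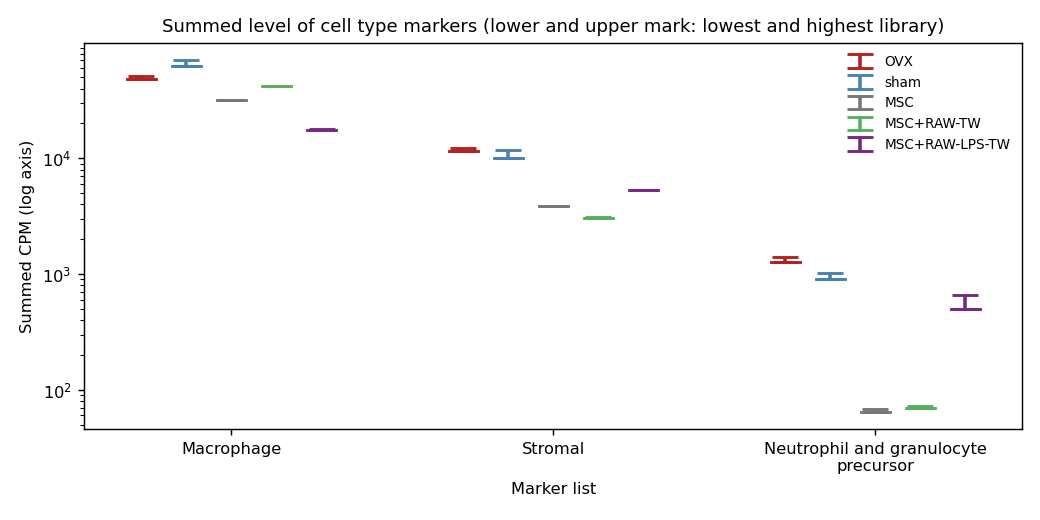
Summed CPM (log axis) of macrophage, stromal and neutrophil markers in the 5 groups. The lower and upper marks are the lowest and highest library of a group. Macrophage markers lie between 17440 and 70300 CPM, above the stromal markers in every group, and neutrophil markers are lowest in MSC and MSC+RAW-TW.

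The first comparison addressed how BMMs change when the mice lose ovarian hormones. Of the 6 genes, 5 were lower in OVX than in sham BMMs and *Ptx3* was higher, and all 6 passed the test (edgeR quasi-likelihood, called from a 2-fold difference on, where p adjusted by Benjamini-Hochberg over 16768 genes is no higher than 0.05). Of all genes tested, 3.08% were called lower and 5.39% higher. The median log2 fold change of the 6 genes was -1.68, beside -0.009 over all genes. The libraries of both groups did not overlap for any of the 6, as for 42.6% of all genes.

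*Saa3* showed the largest difference. It was at 558, 616 and 595 CPM in OVX libraries 1 to 3 and at 6762, 6302 and 6413 CPM in sham libraries 1 to 3. Each OVX library was thus far below each sham library, and the libraries within a group were close to each other. The level was 590 ± 29.2 CPM (SD, n = 3) in OVX and 6560 ± 287 (SD, n = 2) in sham, an 11.4-fold fall (log2 fold change -3.51, SE 0.17, edgeR adjusted p = 0.00015). *Saa3* took 0.0603% to 0.0650% of all counts in OVX and 0.601% to 0.611% in sham. It ranked 7 among all genes by counts in each sham library and 202 to 221 in OVX.

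*Hp*, for the hemoglobin scavenger haptoglobin, was at 84.0, 103 and 97.0 CPM in OVX and at 275, 430 and 430 CPM in sham. Sham library 1 was the lowest of its group but still above every OVX library. *Hp* fell 3.84-fold (log2 fold change -1.94, SE 0.24, edgeR adjusted p = 0.0055). *Slpi*, for the protease inhibitor, was at 28.1, 34.0 and 30.1 CPM in OVX and at 80.1, 80.0 and 81.0 CPM in sham. The sham libraries were almost equal. *Slpi* fell 2.68-fold (log2 fold change -1.42, SE 0.17, edgeR adjusted p = 0.0055).

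*Lcn2*, for the siderophore-binding lipocalin, was at 28.2, 30.4 and 27.6 CPM in OVX and at 62.7, 57.1 and 54.8 CPM in sham. The fall was the smallest of the 5, at 2.11-fold (log2 fold change -1.08, SE 0.17, edgeR adjusted p = 0.0087). *Steap4*, for the metalloreductase, had the lowest level of the 6 genes, at 7.68, 5.38 and 4.17 CPM in OVX and 27.6, 15.7 and 15.6 CPM in sham. Sham library 1 was well above the near-identical libraries 2 and 3, and all 3 were above every OVX library. *Steap4* fell 3.84-fold (log2 fold change -1.94, SE 0.32, edgeR adjusted p = 0.0098).

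*Ptx3*, for the long pentraxin, moved the other way. It was at 302, 230 and 218 CPM in OVX and at 128, 78.6 and 84.4 CPM in sham. Library 1 was the highest in each group, and the lowest OVX library was above the highest sham library. *Ptx3* rose 2.34-fold (log2 fold change 1.22, SE 0.25, edgeR adjusted p = 0.019).

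The calls for *Saa3*, *Hp* and *Slpi* held without any 1 OVX library. They also held without sham library 2 or 3, but these count as 1 sample, so no sample was lost. Without sham library 1, which leaves 1 sham sample, the log2 fold changes were -3.50, -2.25 and -1.46. Without OVX library 2, *Lcn2* (log2 fold change -1.11, edgeR adjusted p = 0.0585), *Steap4* (-1.88, adjusted p = 0.0627) and *Ptx3* (1.29, adjusted p = 0.0733) lost the call. Without OVX library 1, *Ptx3* lost it (1.07, edgeR adjusted p = 0.0623). With the trends of each library on GC content and length taken out, *Lcn2* was under the fold limit (-0.74, edgeR adjusted p = 0.0252), and the split of all calls turned from 903 higher and 516 lower to 220 higher and 369 lower.

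Marker levels moved with this comparison. Of the 20 macrophage markers, 4 were called lower and 1 higher in OVX, and the median log2 fold change was -0.65. The 16 neutrophil and granulocyte precursor markers, which *Lcn2*, *Hp* and *Slpi* can accompany in marrow, summed to 1266 to 1412 CPM in OVX and 906 to 1015 CPM in sham. Most of the sum was *S100a8* (means of 478 and 324 CPM) and *S100a9* (639 and 390 CPM). *Elane*, *Mpo*, *Prtn3*, *Ctsg*, *Camp*, *Mmp8* and *Csf3r* had lower means in OVX. By edgeR 0 of 16 were called, though 7 had an unadjusted p under 0.05 and DESeq2 called 1. *S100a9* (log2 fold change 0.67, edgeR adjusted p = 0.041) was under the fold limit. Of the 12 stromal markers, edgeR and DESeq2 called 0 and 2 had an unadjusted p under 0.05, and their median was -0.002. The part of the macrophage markers in the result was not tested.

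**Figure D3:**
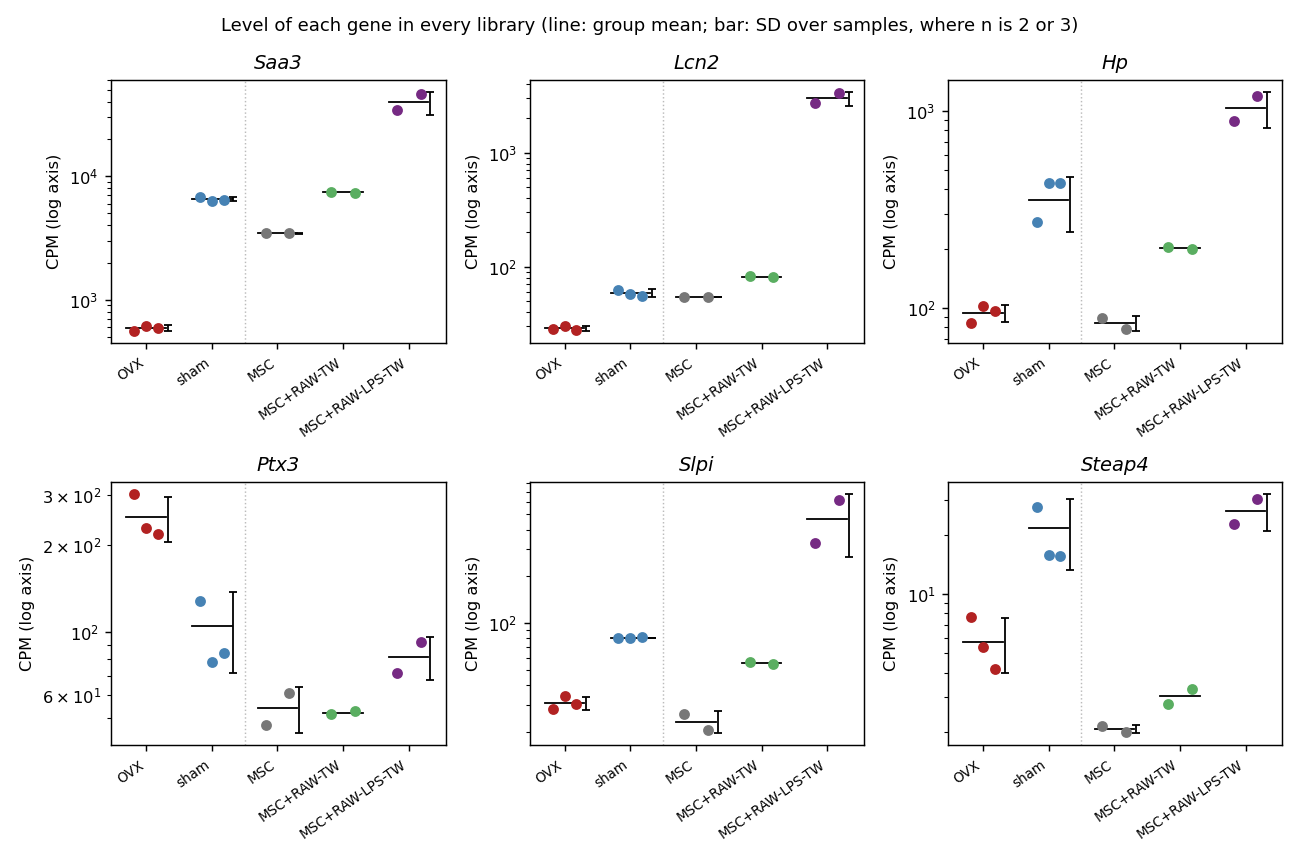
CPM (log axis) of each gene in every library of the 5 groups. Lines are group means and bars are SDs over samples where n is 2 or 3, with near-identical libraries counted once, and the dotted line separates both experiments, which were scaled separately. In OVX, 5 genes lie below sham and *Ptx3* lies above it, and all genes but *Ptx3* rise steeply in MSC+RAW-LPS-TW.

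The MSC experiment addressed how MSCs change beside macrophages, and beside macrophages activated with LPS. Compared with MSCs alone, 5 of the 6 genes rose in MSC+RAW-LPS-TW and *Ptx3* was not called. Of 20499 genes tested, 5.85% were called higher and 5.09% lower. The median log2 fold change of the 6 genes was 3.66, beside -0.013 over all genes. The libraries of both groups did not overlap for any of the 6 genes, as for 57.6% of all genes.

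*Lcn2* rose most. It was at 53.9 and 54.6 CPM in MSC, 82.9 and 80.9 CPM in MSC+RAW-TW, and 2717 and 3310 CPM in MSC+RAW-LPS-TW. Both LPS libraries were far above all others. The rise over MSC was 55.9-fold (log2 fold change 5.81, SE 0.19, edgeR adjusted p = 1.15e-11), and its 95% interval (5.39 to 6.22) lay above those of the other 5 genes. *Slpi* was at 26.0 and 20.7 CPM in MSC, 56.5 and 54.6 CPM in MSC+RAW-TW, and 325 and 616 CPM in MSC+RAW-LPS-TW. The LPS libraries were nearly a factor of 2 apart. The rise over MSC was 20.3-fold (log2 fold change 4.34, SE 0.26, edgeR adjusted p = 6.6e-09).

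*Saa3* was already abundant in MSCs alone, at 3491 and 3444 CPM. It was at 7475 and 7390 CPM in MSC+RAW-TW and at 34160 and 46040 CPM in MSC+RAW-LPS-TW. The rise over MSC was 11.6-fold (log2 fold change 3.54, SE 0.18, edgeR adjusted p = 1.35e-09). *Saa3* alone took 3.39% and 4.37% of all counts in the LPS libraries, where it ranked 2 after the ribosomal RNA gene *CT010467.1*. It took 0.393% of counts in both MSC libraries and 0.677% in both MSC+RAW-TW libraries. The 6 genes together reached 3.78% and 4.87% of counts with LPS.

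*Hp* was at 89.3 and 78.9 CPM in MSC, 205 and 201 CPM in MSC+RAW-TW, and 887 and 1189 CPM in MSC+RAW-LPS-TW. The 3 groups did not overlap. *Hp* rose 12.4-fold over MSC (log2 fold change 3.64, SE 0.19, edgeR adjusted p = 1.16e-09). *Steap4* was at 2.15 and 2.0 CPM in MSC, 2.78 and 3.29 CPM in MSC+RAW-TW, and 22.5 and 30.4 CPM in MSC+RAW-LPS-TW. Of the LPS libraries, 1 lay within the range of sham BMMs and 1 above it. *Steap4* rose 12.8-fold over MSC (log2 fold change 3.68, SE 0.25, edgeR adjusted p = 2.01e-08).

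*Ptx3* changed least. It was at 47.1 and 61.1 CPM in MSC, 51.5 and 53.0 CPM in MSC+RAW-TW, and 71.8 and 92.0 CPM in MSC+RAW-LPS-TW. Both LPS libraries were above the others, but the difference from MSC was 1.52-fold (log2 fold change 0.61, 95% interval 0.23 to 0.98, edgeR adjusted p = 0.022), under the fold limit. The intervals of the other 5 genes all lay above 3 on the log2 scale.

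**Figure D4:**
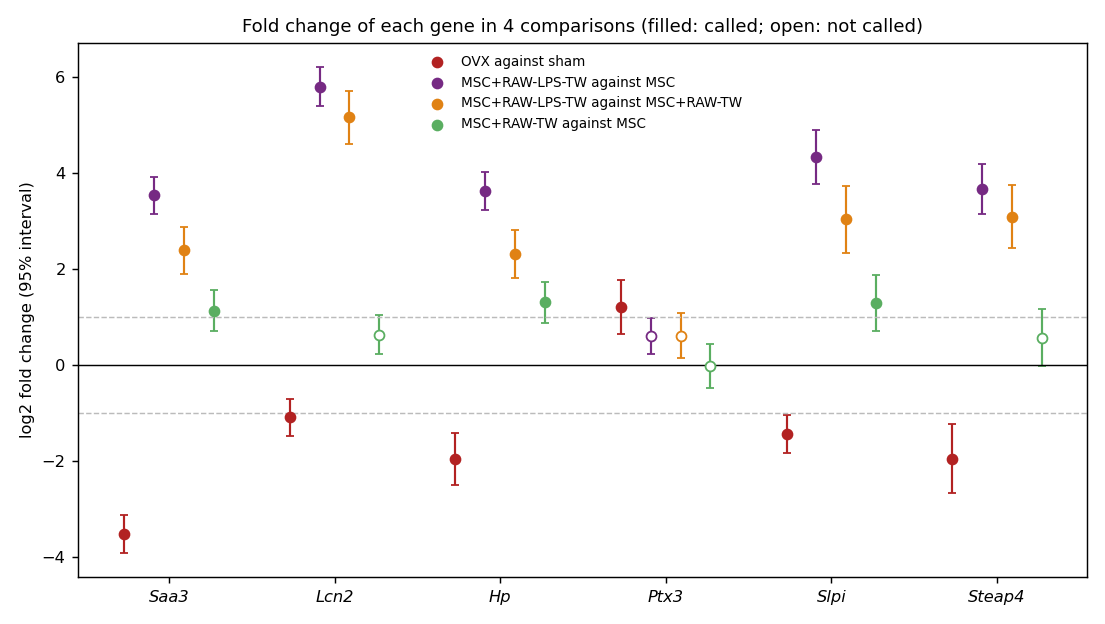
Log2 fold change of each gene with its 95% interval in the 4 comparisons. Filled points are called (a fold of at least 2, the dashed lines, and adjusted p of at most 0.05) and open points are not. *Saa3* fell by 3.51 after OVX, *Lcn2* rose by 5.81 over MSC with LPS, and *Ptx3* differed in sign from the other genes after OVX.

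The contrast of MSC+RAW-LPS-TW with MSC+RAW-TW shares the LPS libraries with the contrast above. Here the p-values rest on 1 MSC+RAW-TW sample that is assumed to vary like the other groups. The same 5 genes were called higher, and of all genes 15.4% were called higher and 12.0% lower. *Lcn2* was 35.9-fold higher (log2 fold change 5.17, SE 0.26, edgeR adjusted p = 1.35e-09), *Steap4* 8.57-fold (3.10, SE 0.31) and *Slpi* 8.26-fold (3.05, SE 0.33). *Saa3* was 5.27-fold higher (2.40, SE 0.23) and *Hp* 5.0-fold (2.32, SE 0.23). *Ptx3* was at a log2 fold change of 0.62 (SE 0.22, adjusted p = 0.036). The median of the 6 genes was 2.72, beside 0.14 over all genes.

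Untreated RAW264.7 cells were compared with no RAW264.7 cells next, with the same lone sample. Of the 6 genes, 3 were called higher in MSC+RAW-TW than in MSC, where of all genes 6.8% were called higher and 9.59% lower. *Hp* was 2.49-fold higher (log2 fold change 1.31, SE 0.20, edgeR adjusted p = 0.0004), *Slpi* 2.45-fold (1.29, SE 0.27, adjusted p = 0.0029) and *Saa3* 2.21-fold (1.14, SE 0.20, adjusted p = 0.00086). *Lcn2* had a log2 fold change of 0.64 (SE 0.19, adjusted p = 0.020), under the fold limit. *Steap4* was at 0.58 (95% interval -0.02 to 1.18, adjusted p = 0.133) and *Ptx3* at -0.01 (95% interval -0.47 to 0.45, adjusted p = 0.986). With GC content and length trends removed, *Hp* was under the fold limit (0.87) and all calls were split 1129 higher and 1037 lower, in place of 1394 and 1966. By DESeq2, *Slpi* had a log2 fold change of 1.30 but was not called (adjusted p = 0.0798). The median over all genes was -0.13 in this contrast and 0.14 in the one before, beside 0.89 for the 6 genes here.

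In the MSC experiment, 9 of 20 macrophage markers were called lower and 2 higher with LPS than without RAW264.7 cells (median log2 fold change -0.53). Most of the lower sum was *Lyz2*, at 21790 CPM in MSC and 9562 CPM with LPS. Steeper falls were seen in *Mrc1* (592 to 4.0 CPM), *Trem2* (457 to 11.9 CPM) and *C1qc* (909 to 142.5 CPM). In contrast, *Adgre1*, for the macrophage protein F4/80, was at 551 and 1468 CPM, and *Cybb* at 315 and 1811 CPM. Against MSC+RAW-TW, 11 macrophage markers were lower and 5 higher (median -1.43), and in MSC+RAW-TW against MSC, 5 were higher and 1 lower (median 0.35), beside the 3 of the 6 genes that rose there. The neutrophil markers summed to 64.6 to 67.6 CPM in MSC, 69.1 to 73.1 CPM in MSC+RAW-TW and 503 to 653 CPM in MSC+RAW-LPS-TW. Of the 6 neutrophil markers tested, 3 were called higher and 1 lower with LPS than in MSC (median log2 fold change 2.39), and 4 were higher and 0 lower than in MSC+RAW-TW. Most of the sum with LPS was *S100a8*, a calprotectin subunit that activated macrophages also make, at 428 CPM. *Camp* went from 0.596 CPM in MSC to 34.1 CPM, *Mmp8*, a neutrophil collagenase, from 6.74 to 29.5 CPM and *Csf3r*, the G-CSF receptor, from 44.6 to 86.5 CPM, which was not called against MSC. The granule and neutrophil genes *Elane*, *Ltf*, *Cebpe*, *Cxcr2*, *Retnlg* and *Fcnb* were at 0 counts in both LPS libraries. Of 12 stromal markers, 2 were called higher and 0 lower than in MSC, and 4 higher and 1 lower than in MSC+RAW-TW (median log2 fold change 0.61), while 2 were higher and 2 lower in MSC+RAW-TW than in MSC. Of 6 adipocyte markers, 5 were called lower and 0 higher with LPS than in MSC (median log2 fold change -2.39), and likewise 5 and 0 against MSC+RAW-TW (-1.79). They summed to 935 to 1025 CPM in MSC, 598 to 632 CPM in MSC+RAW-TW and 180 to 184 CPM in MSC+RAW-LPS-TW. The part of these markers in the result was not tested.

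The levels of all 5 groups were set side by side, though both experiments were scaled separately. *Saa3* was lowest in OVX, followed by MSC, sham, MSC+RAW-TW and MSC+RAW-LPS-TW, with no overlap between neighbors. For *Lcn2* the order was OVX, MSC, sham, MSC+RAW-TW and MSC+RAW-LPS-TW, and MSC and sham were close (54.6 CPM in the highest MSC and 54.8 CPM in the lowest sham library). For *Hp*, MSC and OVX overlapped at the low end, and MSC+RAW-TW, sham and MSC+RAW-LPS-TW followed. *Slpi* rose from MSC over OVX, MSC+RAW-TW and sham to MSC+RAW-LPS-TW, without overlap. *Steap4* rose from MSC over MSC+RAW-TW and OVX to sham and MSC+RAW-LPS-TW, of which the last pair overlapped. *Ptx3* alone was highest in OVX. Its MSC and MSC+RAW-TW libraries overlapped at the low end, and its MSC+RAW-LPS-TW and sham libraries overlapped in the middle.

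Between genes, levels were compared as CPM per kilobase of exon. *Saa3* was first and *Steap4* last in every group, at 226 and 1.82 in OVX, 2517 and 6.85 in sham, 1331 and 0.657 in MSC, and 15390 and 8.38 in MSC+RAW-LPS-TW. *Ptx3* was second in OVX (93.3), where it exceeded *Hp* (59.0), whereas in sham *Ptx3* (39.0) was below *Hp* (220) and *Slpi* (68.0). *Lcn2* was second with LPS, at 1149. These values depend on the length used. With the length of the principal transcript in place of all exons, *Saa3* was at 1063 in OVX, 11820 in sham, 6248 in MSC and 72250 in MSC+RAW-LPS-TW, *Lcn2* was at 3293 with LPS, and *Steap4*, which has 1 annotated transcript, kept its value. *Saa3* remained first and *Steap4* last, but the ratio of their levels in OVX went from 124 to 584. In the order of the others, *Lcn2* and *Ptx3* traded places in sham, and *Lcn2* and *Slpi* did in MSC+RAW-TW.

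Relatives of the 6 genes were examined next. *Saa1*, which with *Saa2* is a main liver serum amyloid A gene, reached at most 0.504 CPM in BMMs and 5.56 to 10.4 CPM in MSC+RAW-LPS-TW. *Saa2* did not exceed 0.782 CPM and *Saa4* 0.902 CPM in any library. The short pentraxin genes *Crp* and *Apcs* had at most 4 and 2 counts in a library. Of 21 relatives, 9 were tested in BMMs and 0 were called by edgeR or DESeq2 after OVX, with 3 at an unadjusted p under 0.05 (median log2 fold change -0.51). *Wfdc21* had a log2 fold change of -0.81 after OVX (edgeR adjusted p = 0.031), under the fold limit. With LPS, 13 were tested against MSC, of which 6 were higher and 1 lower, with a median of 1.64. Against MSC+RAW-TW, 6 were higher and 2 lower (median 2.58), and MSC+RAW-TW had 1 higher and 3 lower than MSC (median 0.06). *Wfdc21* and *Wfdc17*, which encode small proteins with the same WAP fold as SLPI, were higher (log2 fold change 5.79, SE 0.45, and 2.87, SE 0.21, edgeR adjusted p = 1.26e-07 and 7.44e-08). *Steap3*, for the endosomal ferrireductase, fell by 2.33 (SE 0.20, adjusted p = 3.00e-07).

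A list of other acute-phase genes was also counted. Most encode plasma proteins, but it holds the intracellular metallothioneins *Mt1* and *Mt2*, which were among its genes called lower after OVX and higher with LPS than in MSC, and *F3*, for the membrane protein tissue factor. After OVX, 7 of 16 tested genes were lower and 0 higher (median log2 fold change -0.82). *Mt2* fell by 2.49 (SE 0.63, edgeR adjusted p = 0.038), and *Serpina3g*, a serine protease inhibitor of the antichymotrypsin family, fell by 2.12 (SE 0.23, adjusted p = 0.0042). With LPS against MSC, 9 of 18 were higher and 1 lower, with a median of 1.14. *Cp*, for the copper ferroxidase ceruloplasmin, rose from 55.5 to 311 CPM (log2 fold change 2.49, SE 0.17, adjusted p = 3.38e-08). *F3* rose from 3.33 to 12.6 CPM (1.93, SE 0.25, adjusted p = 2.74e-05). Against MSC+RAW-TW, 4 were higher and 1 lower, and MSC+RAW-TW had 3 higher and 1 lower than MSC. *Mt1* and *Mt2* were already higher in MSC+RAW-TW than in MSC (log2 fold change 1.32, SE 0.21, and 1.42, SE 0.28) and were at -0.14 and 0.31, not called, with LPS against MSC+RAW-TW.

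Of 15 other antimicrobial genes tested in BMMs, 3 were lower and 0 higher after OVX, with a median of 0.30, which is opposite in sign to the calls. *Acod1*, for the itaconate-producing enzyme, fell by 1.77 (SE 0.18, edgeR adjusted p = 0.0034) and *Lgals9*, for galectin-9, by 1.17 (SE 0.17, adjusted p = 0.0080). With LPS against MSC, 4 of 11 were higher and 3 lower, with a median of 0.12. *Camp*, for the cathelicidin antimicrobial peptide, rose from 0.596 to 34.1 CPM (log2 fold change 5.81, SE 0.29, adjusted p = 8.01e-10), and *S100a8* from 13.4 to 428 CPM (5.0, SE 0.24, adjusted p = 5.92e-10). The macrophage genes *Lgals3* (galectin-3) and *Lyz2* (lysozyme) fell by 1.48 (SE 0.16) and 1.18 (SE 0.15). Against MSC+RAW-TW, 4 were higher and 3 lower, and MSC+RAW-TW had 3 higher and 0 lower than MSC.

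Receptors, partners and substrates of the 6 proteins were counted as well. After OVX, 4 of 18 were lower and 0 higher, with a median of -0.57. *Mmp9*, for the gelatinase that LCN2 binds, fell by 1.72 (SE 0.17, edgeR adjusted p = 0.0030), and *Fpr2*, a formyl peptide receptor that serum amyloid A proteins can activate, fell by 1.37 (SE 0.30, adjusted p = 0.024). With LPS against MSC, 5 of 17 were higher and 2 lower, with a median of 0.17. *Mmp9* rose from 38.1 to 718 CPM (log2 fold change 4.24, SE 0.17, adjusted p = 9.42e-11) and *Fpr1* from 175 to 583 CPM (1.75, SE 0.17, adjusted p = 1.42e-06). *Tlr4*, the LPS receptor, fell by 1.16 (SE 0.18, adjusted p = 0.00015). Against MSC+RAW-TW, 7 were higher and 0 lower, and MSC+RAW-TW had 1 higher and 4 lower than MSC.

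The pathway that induces these genes was followed through 27 cytokines, receptors, transcription factors and feedback genes, of which 26 were tested in each experiment. After OVX, 7 were lower and 0 higher, with a median of -0.55. *Zc3h12a*, for the RNase regnase-1 that degrades inflammatory mRNAs, fell by 1.79 (SE 0.24, edgeR adjusted p = 0.0067). *Socs3*, a feedback inhibitor of STAT3 signaling, fell by 1.55 (SE 0.22, adjusted p = 0.0080). With LPS against MSC, 15 were higher and 2 lower, with a median of 1.65. *Il1a* rose from 0.941 to 1124 CPM (log2 fold change 10.22, SE 0.25, adjusted p = 1.47e-12) and *Il6* from 0.459 to 204 CPM (8.76, SE 0.24, adjusted p = 1.66e-12). *Cebpa*, for C/EBPα, and *Il6ra*, the interleukin-6 receptor, fell by 2.11 (SE 0.20) and 1.08 (SE 0.16). Against MSC+RAW-TW, 16 were higher and 2 lower, and MSC+RAW-TW had 3 higher and 3 lower than MSC.

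The C/EBP genes *Cebpd* and *Cebpb* were picked after their values were seen, because of the motif in the promoters. *Cebpd* fell by 1.19 after OVX (SE 0.19, edgeR adjusted p = 0.0093) and had a log2 fold change of 0.86 with LPS against MSC (SE 0.16, adjusted p = 0.0012), under the fold limit. *Cebpb* had a log2 fold change of -0.92 after OVX (SE 0.27, adjusted p = 0.060) and rose by 1.88 with LPS (SE 0.18, adjusted p = 1.01e-06). With LPS against MSC+RAW-TW neither was called (0.17 for *Cebpd* and 0.99 for *Cebpb*). *Cebpa*, which fell with LPS against MSC, had a log2 fold change of -0.05 after OVX.

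**Figure D5:**
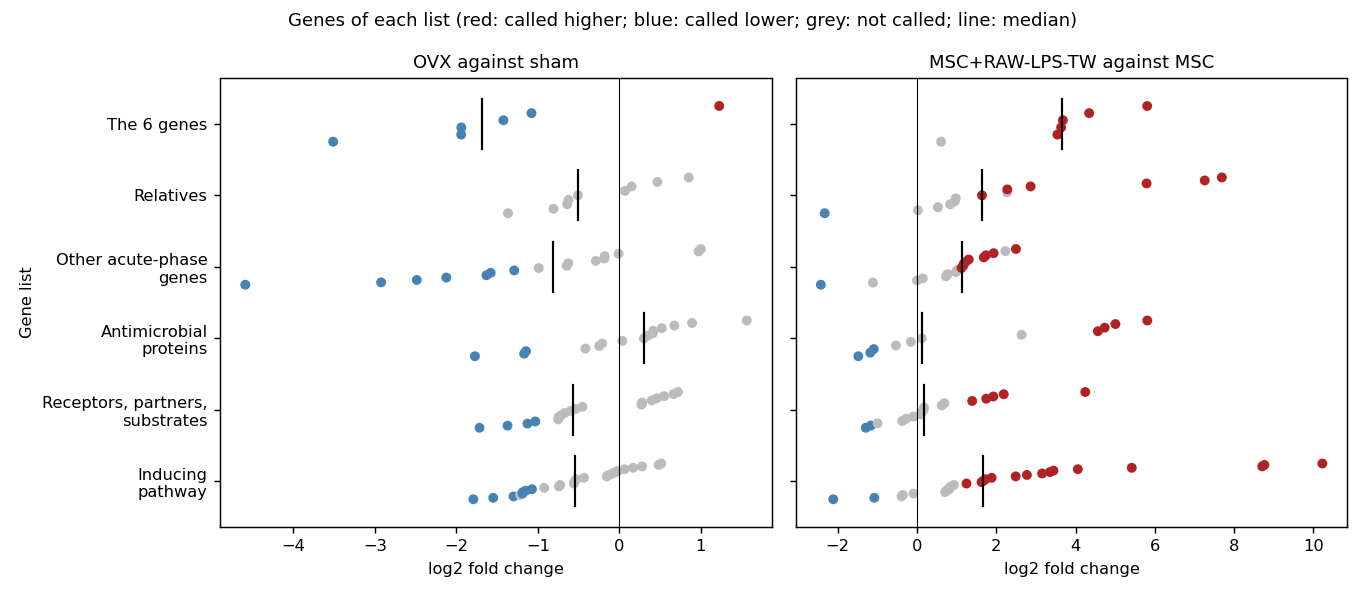
Log2 fold changes of the 6 genes and of the tested genes of 5 lists, for OVX against sham (left) and MSC+RAW-LPS-TW against MSC (right). Red points are called higher, blue points lower and grey points not called, and black lines are medians. After OVX the only gene called higher is *Ptx3*, and with LPS the medians are 3.66 for the 6 genes and 0.12 to 1.65 for the lists.

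The genes whose pattern was most like each of the 6 were found by Pearson's r of log2 CPM over the 10 samples of both experiments, among 10595 genes that average 5 CPM or more. For this, both experiments were scaled together with TMM. The samples are grouped by experiment, so r describes the pattern only. The closest to *Saa3* were *Rims3* (r = 0.985), *Nfe2l1* (0.982) and *Rap1gap2* (0.980). The closest to *Lcn2* were *Ptges* (0.997), *Upp1* (0.990) and *Gdnf* (0.987). *Hp* was closest to *Tnip1* (0.990), to *Slpi* (0.976) and to *Sod3* (0.975), and *Slpi* to *Tnip1* (0.985), *Draxin* (0.982) and *Slc2a1* (0.978). *Tnip1*, which encodes an NF-κB inhibitor, thus headed both lists. *Ptx3* was closest to *Chpt1* (0.987), *Pgrmc1* (0.987) and *Tceal8* (0.983), and *Steap4* had *Pgm1* (0.978) and *Spn* (0.972) among its closest. Among the 6 genes themselves, r ranged from 0.976 for *Hp* and *Slpi* to -0.659 for *Saa3* and *Ptx3*.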

How the data were processed

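RNA-seq was measured in 6 BMM and 6 MSC libraries. According to the methods and the submitters' processing notes, the authors trimmed reads with Trim Galore 0.6.7, mapped them to GRCm38 with HISAT2 2.1.0 and assigned them to Ensembl genes with featureCounts 2.0.1. The deposited values are raw counts, without normalization or filter. Whether counting used strand, and how it treated mates, was not given in the sources used here, and even values made up 60.0% to 71.4% of counts from 1 to 20, so counts are not independent molecules. Identifiers were matched to GENCODE release M21 symbols (55141 of 55487).

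Each table was fitted as a whole in edgeR 4.0.16 (R 4.3.3) with TMM, filterByExpr at its defaults and the quasi-likelihood F-test, two-sided, and the MSC groups shared 1 fit. Near-identical libraries, found from the chi-square of each gene with 20 or more counts in the pair, were summed for the fit and averaged in levels. The SE is the log2 fold change divided by the root of F. Calls needed a 2-fold difference and an adjusted p no higher than 0.05. The fits were tested on simulated data. The genes and all lists were chosen with earlier results of these data known. From each list the 2 largest rises and 2 largest falls were named, among called genes that average 5 CPM or more, in OVX against sham and in MSC+RAW-LPS-TW against MSC. List medians did not change when genes with at most 3 counts in every library of a group were set to that floor. Of the genes named for their likeness to the 6, 1 is not reported here. Alternatives were RLE, DESeq2 1.42.0, other filters, levels without ribosomal RNA genes, no fold limit, libraries kept apart, blocks, only the groups compared, each library left out, and, chosen after seeing the data, lowess correction (span 0.3) for GC content and exon length and the principal transcript's length for levels. Tables and figures were made with matplotlib 3.10.9, pandas 2.3.3 and numpy 2.4.6 under python 3.11.15.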

Additional observations from a re-analysis of the deposited data

How the results depend on the processing

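Of 360 alternative values of the log2 fold changes of the 6 genes, 346 kept their direction and whether they were called, 7 lost the call, 3 gained it and 4 turned in sign. Among values that were not called for their size, the adjusted p crossed 0.05 in some settings, as for *Lcn2* in MSC+RAW-TW against MSC (0.0202, but 0.251 with GC content and length trends removed) and *Ptx3* in MSC+RAW-LPS-TW against MSC (0.0221, but 0.309 without MSC library 1). The 4 were all *Ptx3* in MSC+RAW-TW against MSC, a value near 0 (-0.01). It was 0.0018 with RLE, 0.0011 with DESeq2 and 0.0017 with a mean CPM of at least 1, and leaving out 1 library gave -0.19 to 0.20. *Saa3* kept its call in OVX against sham throughout, from -3.55 to -3.47.

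The count of all genes called moved more. In OVX against sham it was 1419, but 2193 without the fold limit and 589 (220 higher, 369 lower) with GC content and length trends removed. Leaving out 1 library gave 309 (without OVX library 2) to 2390 (without sham library 1), with 678 without OVX library 1, and 3 to 6 of the 6 genes called. In MSC+RAW-LPS-TW against MSC it was 2243, and 4286 without the fold limit. In MSC+RAW-TW against MSC it was 3360, but 5862 without the fold limit and 2166 with the trends removed. The causes were not tested.

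Whether the replicate numbers pair the BMM libraries was not settled. The deviations of same-numbered libraries correlated at 0.409, -0.026 and 0.353, and 4 of 6 libraries correlated best with their own number. Sham libraries 2 and 3 are near-identical, so this check cannot tell them apart. With the replicate block and all libraries kept apart, 2117 genes and all 6 of the genes described were called, beside 1818 genes with libraries apart and no block. A number series in the column names set OVX and sham libraries 2 apart from the other BMM libraries. As a block, it gave 1693 genes, with all 6 called. No replicate block was fitted for the MSC groups. Both MSC+RAW-TW columns carry the number 1, and the MSC+RAW-LPS-TW columns carry 2 and 3, against replicates 1 and 2 in the labels. A block on a suffix of the column names, which is not a replicate number, left 5, 5 and 3 genes called there, as without it. Sham and MSC+RAW-TW rest on 2 and 1 samples, which limits the precision of every fold change against them.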

Other observations

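The other members of the STEAP metalloreductase family were called with *Steap4* in some comparisons and not in others. *Steap1* was at 7.49 to 8.32 CPM in MSC, 2.36 to 2.49 CPM in MSC+RAW-TW and 13.6 to 17.4 CPM in MSC+RAW-LPS-TW, and edgeR called it lower in MSC+RAW-TW than in MSC (log2 fold change -1.66), where *Steap4* was at 0.58 and not called. *Steap2* was at 19.1 to 24.0, 10.7 to 11.1 and 62.4 to 70.8 CPM in the same groups and was called higher with LPS than in MSC (1.64), as *Steap4* was (3.68). Both were also called higher with LPS than in MSC+RAW-TW, *Steap1* by a log2 fold change of 2.64 and *Steap2* by 2.57, beside 3.10 for *Steap4*. *Steap3* was at 36.0 to 48.1, 40.2 to 44.2 and 7.45 to 9.17 CPM and was called lower with LPS. After OVX, none of the 3 was called, with log2 fold changes of 0.07 for *Steap1*, 0.85 for *Steap2* and -0.64 for *Steap3*. The difference between family members was not tested.

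Among genes with the WAP fold of SLPI, *Wfdc17* was at 166 to 312 CPM in OVX and 210 to 453 CPM in sham, 91.9 to 135 CPM in MSC, 51.4 to 53.7 CPM in MSC+RAW-TW and 689 to 957 CPM in MSC+RAW-LPS-TW. It was called lower in MSC+RAW-TW than in MSC (log2 fold change -1.07), where *Slpi* was called higher. *Wfdc21* was at 13.4 to 15.7 CPM in OVX, 20.7 to 28.1 CPM in sham, at most 0.990 CPM in MSC and MSC+RAW-TW, and 28.0 to 38.4 CPM in MSC+RAW-LPS-TW.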
